A study of Mus musculus with 4 samples.

Results

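Chromosome 17 of HEK293 cells, a human embryonic kidney line, is described here by its open chromatin, arm by arm. The members were the ATAC-seq peaks of a single deposited list on chromosome 17 of build GRCh38: peaks ending below 22.2 Mb formed the short arm, peaks starting above 27.4 Mb formed the long arm, and the centromeric region between these limits was left out. This gave 3118 of the 48751 peaks in the list, 842 on the short arm and 2276 on the long arm. The last peak kept on the short arm lay at 21980383 to 21980812 with a fold enrichment of 3.13, and the next peak outward of the rule, at 22310522 to 22311474, had a fold of 16.5. On the other side, the last peak left out lay at 27380723 to 27381442 with a fold of 10.2, and the first kept on the long arm lay at 27446747 to 27447250 with a fold of 7.72.

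The study compared HEK293 cells given a TRAFTAC against NFkB with cells given a scrambled TRAFTAC, with 2 libraries each (replicates 1 and 2). A TRAFTAC is a nucleic acid chimera that carries a transcription factor's binding motif and, through a tagged dCas9 protein and a degrader molecule, brings that factor to the protein degradation machinery. Cells in all 4 libraries were transfected for 6 h with a plasmid for the HA-HaloTag7 dCas9 fusion protein at 1 ug/mL and with 25 nM TRAFTAC, and were then kept for 19 h with TNF-alpha at 5 ng/mL and with the HaloTag-directed degrader HP14 at 25 uM, dissolved in DMSO. The paper's protocol also includes a DNase treatment of the cells shortly before harvest. The organism label of the samples is mouse, whereas HEK293 is a human line and the list holds the human chromosomes 20, 21 and 22. Because the peaks were found on the merged reads of all 4 libraries, no value belongs to a single library, the effect of the NFkB TRAFTAC on chromosome 17 cannot be told from these values, and no difference in the text below has a replicate error or a test. Library depths are not part of the list. Intervals are 95% intervals over the peaks or windows of the pooled list and cover counting error only, and PCR copies and neighbouring peaks are not independent.

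ATAC-seq uses the transposase Tn5, which cuts and tags DNA where it is not wrapped in nucleosomes. Active promoters, enhancers and insulator sites are open in this way, so gene-rich chromosome regions hold many peaks, and long stretches with few genes or with silenced genes hold few. Human chromosome 17 is among the gene-rich chromosomes. Its long arm carries NF1, which encodes a regulator of Ras signalling, and the HOXB cluster of developmental transcription factor genes. Peaks were not assigned to genes, since an annotation of GRCh38 was not used here, so the stretches below are given by position alone.

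Both arms were dense in open sites, and nearly equally so. The short arm held 37.9 peaks per Mb over 22.2 Mb and the long arm 40.8 peaks per Mb over 55.8 Mb, counted up to the end of its last peak at 83247392. The ratio of long to short arm was 1.07, with a counting interval of 0.992 to 1.16 that includes equality. Peak intervals covered 2.79% of the short arm and 2.91% of the long arm. Among the other 22 chromosomes (1 to 22 without 17, and X), 1 had a higher density than either arm: chromosome 19 with 54.5 peaks per Mb. Chromosome 22 followed with 29.2, chromosome 16 with 21.0 and chromosome 1 with 20.0, and the median over the 22 was 15.3. These densities include each chromosome's centromere. With its own centromeric region included, chromosome 17 had 38.0 peaks per Mb and still ranked second. That rank depends on the length counted, which includes stretches without peaks. Over bins of 1 Mb that held peaks, the median was 54 peaks on chromosome 19, 40 on chromosome 22 and 35 on chromosome 17. By this measure chromosome 22 stood above chromosome 17.

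Spacing gives the same picture on a finer scale. The gap between neighbouring peaks had a median of 11088 bp on the short arm (10178 to 12579 bp) and 11189 bp on the long arm (10573 to 11903 bp), against 18518 bp over the whole list. The quartiles were 5340 and 25574 bp on the short arm and 5859 and 24468.5 bp on the long arm. Of the other chromosomes, 1 had a shorter median gap than either arm, chromosome 19 with 9622 bp. The arms resembled each other in the middle of the distribution and less so at its ends. On the short arm 46 gaps were under 1 kb, or 5.47% (4.13 to 7.22%), and on the long arm 82, or 3.60% (2.91 to 4.45%), so these intervals overlapped slightly. The share over all gaps in the list, 4.54%, lay between those of the arms. Gaps of at least 100 kb made up 4.16% of the short arm's gaps, 2.86% of the long arm's and 13.0% of all gaps in the list.

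**Figure D1:**
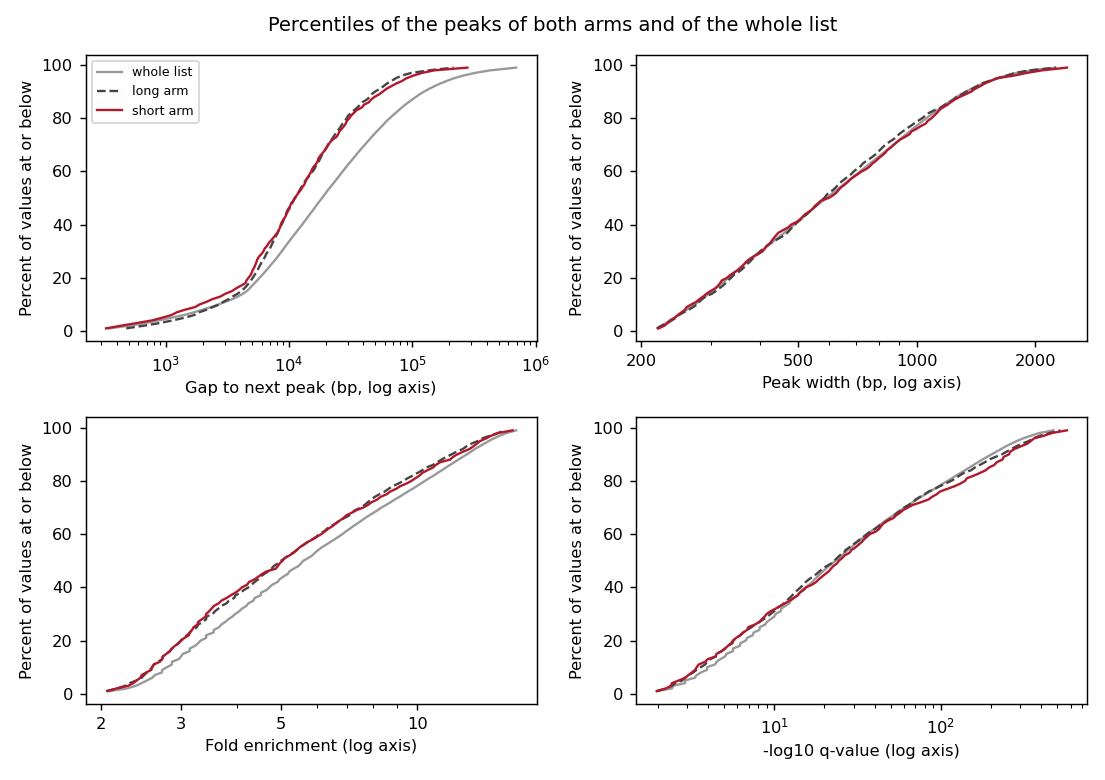
Percentiles of gap to the next peak (bp), peak width (bp), fold enrichment and −log10 q (all x axes logarithmic) for the short arm (solid red), the long arm (dashed) and the whole list (grey), with the percent of values at or below on the y axis. The gap curves of both arms lie left of the whole list over most of their range (medians 11088 and 11189 against 18518 bp) but not at the shortest gaps, the fold medians are lower (5.04 and 5.00 against 5.60), and the width curves nearly coincide.

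Open sites on chromosome 17 were of ordinary size but had lower fold enrichments. The median peak width was 597.5 bp on the short arm (549 to 637 bp) and 583 bp on the long arm (562 to 599 bp), with 590 bp over the whole list. Of the other chromosomes, 8 had a larger median width than the short arm and 12 a larger one than the long arm, so both arms were in the middle of the range. Fold enrichment, the fragment pileup at a peak's summit over the local background, was 5.04 in the median on the short arm (4.77 to 5.35) and 5.00 on the long arm (4.81 to 5.20), below the 5.60 of the list. Only chromosome 22, with 4.92, had a lower median fold than either arm, and the median over the other chromosomes was 5.70.

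Among the listed peaks, the lower median fold went with a higher median background and a higher median pileup. A peak is listed only if its pileup is high enough against its own background, so a higher background can leave out low summits. These medians therefore do not tell how the summits of all sites compare. The fold and the p-value of each peak together fix the summit pileup and the local background that the peak caller used, and both were recovered for all 3118 members. The median pileup was 64.5 fragments on the short arm (58 to 72) and 61.5 on the long arm (58 to 67), each above the 56 of the whole list. Median local background was 12.1 fragments on the short arm (11.1 to 12.9) and 11.9 on the long arm (11.4 to 12.3), against 8.56 over the list (8.48 to 8.64). Only chromosome 19, with 13.5, had a higher median background. The lowest background the caller allowed was 6.32 fragments, and 15.7% of short arm peaks and 15.8% of long arm peaks lay within 1% of that floor, against 34.4% of the whole list.

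The lower fold was also seen at the weak and the strong ends. Peaks with a fold under 3 made up 19.7% of the short arm and 19.5% of the long arm but 13.3% of the list, and peaks with a fold of at least 10 made up 18.4% and 17.1% against 21.8%. The significance of the peaks, as −log10 q, was close to that of the list. Its median was 24.4 on the short arm (quartiles 6.97 and 94.4) and 22.9 on the long arm (7.30 and 79.7), with 23.3 over the list. The strong tail was slightly fuller on the short arm, where 201 peaks, or 23.9% (21.1 to 26.9%), reached a −log10 q of 100. On the long arm 495 did, or 21.7% (20.1 to 23.5%), and 21.5% of the whole list did.

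Strong peaks were wider than weak ones in both arms. Short arm peaks with a −log10 q under 5 had a median width of 297.5 bp and a median fold of 2.60, and those at 100 or more had 1138 bp and 11.4. On the long arm the same classes had 313 bp and 2.60, and 1168 bp and 11.4. Width and significance are set by the caller from the same fragments, so they are not independent measures. Peaks of at least 2 kb numbered 21 on the short arm (2.49%) and 40 on the long arm (1.76%), with 1.80% over the list.

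Along each arm, open sites were gathered into blocks. Counting summits in bins of 1 Mb, the 22 whole bins of the short arm held 3 to 87 peaks with a median of 34, and a mean of 38.3 ± 23.3 (SD over bins). The 55 whole bins of the long arm held 2 to 99 peaks with a median of 38, and a mean of 40.7 ± 22.8. The variance was 14.2 times the mean on the short arm and 12.7 times on the long arm, where peaks scattered at random would give a value near 1. Neighbouring bins had like counts. Over 21 pairs of adjacent bins on the short arm Pearson's r was 0.50 and Spearman's rho 0.59, and over 54 pairs on the long arm they were 0.69 and 0.71, given as descriptions, since adjacent bins overlap in the pairs.

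Bins with at least 2 times the median over both arms, which was 37 peaks, were termed dense, and bins with at most 0.5 times that median sparse. By these limits of 74 and 18.5 peaks, 6 bins were dense and 14 sparse, and the other 57 were termed middle. The dense bins held 509 peaks, or 16.5% of those in whole bins, and the sparse bins held 135, or 4.39%. The 19 fullest bins held 1342 peaks, or 43.6%. Limits of 1.5 times and 2/3 of the median gave 20 dense and 19 sparse bins, and bins of 2 Mb gave 0 dense and 6 sparse bins. The numbers of dense and sparse blocks therefore depend on how they are drawn.

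**Figure D2:**
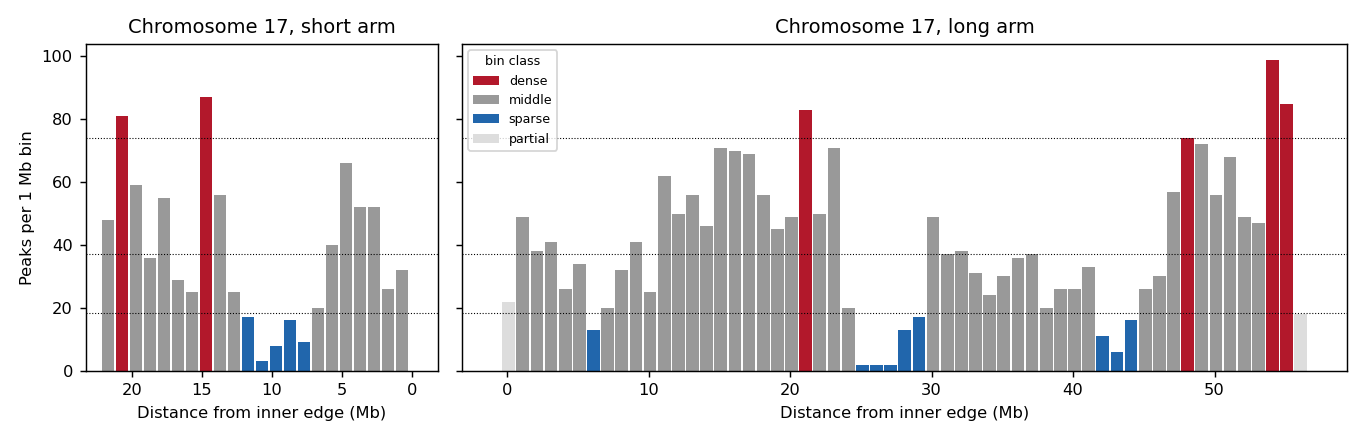
Peaks per 1 Mb bin (y axis) against the distance of the bin's centre from the arm's inner edge in Mb, with the short arm drawn outwards to the left and the long arm to the right. Red bars are dense bins (at least 74 peaks), blue bars sparse bins (at most 18.5), light bars partial bins, and dotted lines the median of 37 and both limits. The sparse bins stand side by side in runs, and the fullest 2 bins of the long arm lie near its outer end.

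On the short arm the outer part was dense and the middle sparse. Its dense bins were 1 to 2 Mb with 81 peaks and 7 to 8 Mb with 87, and the fullest bin outside these was 17 to 18 Mb with 66. All 5 of its sparse bins lay side by side from 10 to 15 Mb, where 53 peaks gave 10.6 per Mb and the median gap was 38366 bp. The emptiest was 11 to 12 Mb with 3 peaks, followed by 12 to 13 Mb with 8 and 14 to 15 Mb with 9. Read in steps of 10 Mb, the first step held 50.1 peaks per Mb with 3.90% of its bases covered, the second 28.3 and the remaining 2.2 Mb up to the inner edge 26.4.

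The long arm held several full and several empty stretches. Its first 2.6 Mb held 41.9 peaks per Mb, and the steps from 30, 40, 50, 60 and 70 Mb then held 34.4, 59.5, 25.1, 27.4 and 45.4. The last 3.2 Mb, up to the final peak, held 76.7 per Mb with 5.64% of the bases covered, the highest of all steps on either arm. Its 4 dense bins were 48 to 49 Mb with 83 peaks, 75 to 76 Mb with 74, 81 to 82 Mb with 99 and 82 to 83 Mb with 85. Sparse bins formed runs at 52 to 57 Mb with 36 peaks (7.2 per Mb) and at 69 to 72 Mb with 33 peaks (11 per Mb), besides the single bin 33 to 34 Mb with 13 peaks. The bins from 52, 53 and 54 Mb held 2 peaks each, the fewest among the whole bins of both arms.

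The longest stretch without a peak on either arm ran from 53106383 to 54900426 on the long arm, over 1794 kb. The peaks on its sides were well above background, with folds of 12.3 and 12.0. The next longest on the long arm were 649 kb from 52383927 to 53032879, within the same sparse run, and 563 kb from 65628604 to 66191273. The short arm's longest were shorter: 487 kb from 10845408 to 11332069, 446 kb from 14814130 to 15260461 and 358 kb from 3177137 to 3534921. The first 2 of these lie in or at the edge of the sparse run, whereas the last lies in the outer part, inside a bin of 36 peaks. At 100 kb resolution 39 of 222 short arm windows held no summit, or 17.6% (13.1 to 23.1%), and 87 of 558 long arm windows, or 15.6% (12.8 to 18.8%), so the arms did not differ beyond these intervals. The fullest window of the short arm, from 1300001 to 1400000, held 16 peaks. On the long arm it was 81300001 to 81400000 with 17, and both lie in dense bins.

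Peaks in dense bins differed from peaks in sparse bins in size, summit and background. Median width was 655 bp in dense bins (612 to 703 bp), 577 bp in middle bins (559 to 598 bp) and 478 bp in sparse bins (396 to 535 bp). Median pileup fell in the same order, from 75 fragments (69 to 92) over 61 (58 to 66) to 48 (39 to 55). Local background fell more steeply, from 17.2 fragments (15.6 to 19.6) over 11.5 (11.0 to 11.9) to 6.32 (6.32 to 6.36), which is the floor. In dense bins 4.32% of peaks lay within 1% of the floor, in middle bins 15.7% and in sparse bins 59.3%.

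Fold enrichment went the other way. It was lowest in dense bins at 4.43 (4.19 to 4.78), then 5.13 in middle bins (4.94 to 5.33) and 5.88 in sparse bins (4.92 to 7.09), and the intervals of middle and sparse bins overlapped. Both arms had this order: 4.29, 5.16 and 5.74 on the short arm, and 4.49, 5.13 and 5.94 on the long arm. The background was ordered alike within each arm too, at 17.9, 11.1 and 6.32 fragments on the short arm and 16.9, 11.5 and 6.32 on the long arm. The number of peaks in a bin and the background are not independent measures, since each peak was called against its local background on the same fragments. That background is taken from a window around a peak, 10 kb by the caller's default. It can hold the fragments of the peak itself and of its neighbours.

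Peaks with no other peak within 10 kb on either side showed less of this gradient. There were 76 such peaks in dense bins (14.9%), 839 in middle bins (34.5%) and 89 in sparse bins (65.9%). Their median background was 11.3 fragments in dense bins (9.18 to 15.7), 8.76 in middle bins (8.29 to 9.36) and 6.32 in sparse bins, so the order remained at a smaller size. Median widths of these peaks were 643.5, 629 and 489 bp and median pileups 59, 57 and 47 fragments. Their own fragments can count in that background. Their median folds of 5.43 (4.24 to 6.83), 6.27 (5.70 to 6.70) and 6.15 (5.06 to 7.52) had overlapping intervals, and the order seen over all peaks was not present between middle and sparse bins.

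Across the 73 whole bins with at least 5 peaks, the number of peaks went with the median background (r 0.76, rho 0.79) and, less closely, with the median width (r 0.50, rho 0.53) and pileup (r 0.38, rho 0.55), and ran against the median fold (r −0.42, rho −0.38). The relation with background was r 0.70 over the 21 bins of the short arm and r 0.80 over the 52 bins of the long arm, and that with fold was r −0.49 and r −0.40. These are descriptions over bins that share 1 pooled set of libraries and its depth. Single bins departed from them. The sparse bin at 14 to 15 Mb held 9 peaks with a median background of 14.8 fragments, above the 14.3 of the dense bin at 1 to 2 Mb. On the long arm, the bin at 48 to 49 Mb was dense with a background of only 11.5.

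**Figure D3:**
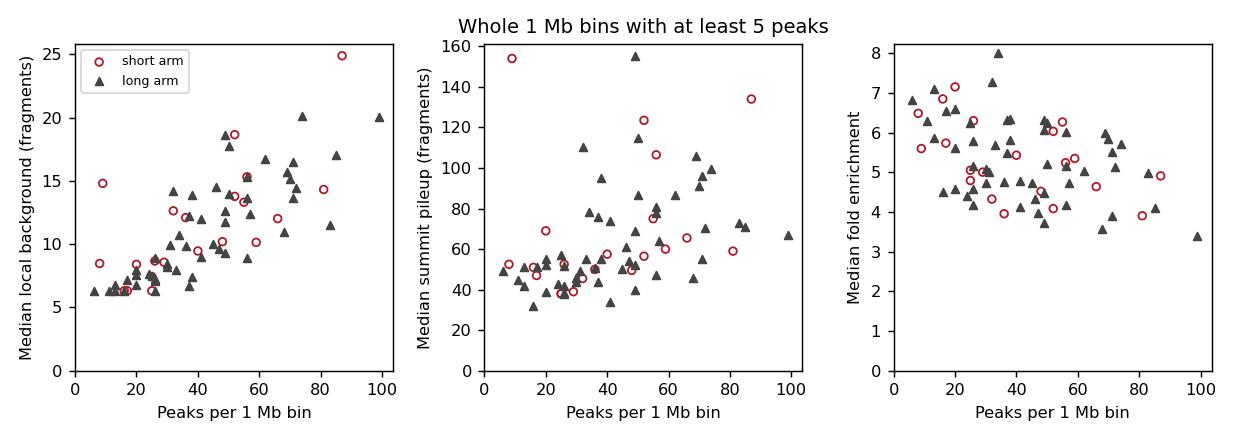
Each point is 1 of the 73 whole 1 Mb bins with at least 5 peaks (open red circles short arm, dark triangles long arm), with the number of peaks on the x axis and, from left to right, the median local background (fragments), summit pileup (fragments) and fold enrichment of its peaks on the y axis. Background rises with the number of peaks in both arms (r 0.76 over both), pileup scatters widely, and fold declines slightly (r −0.42).

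**Figure D4:**
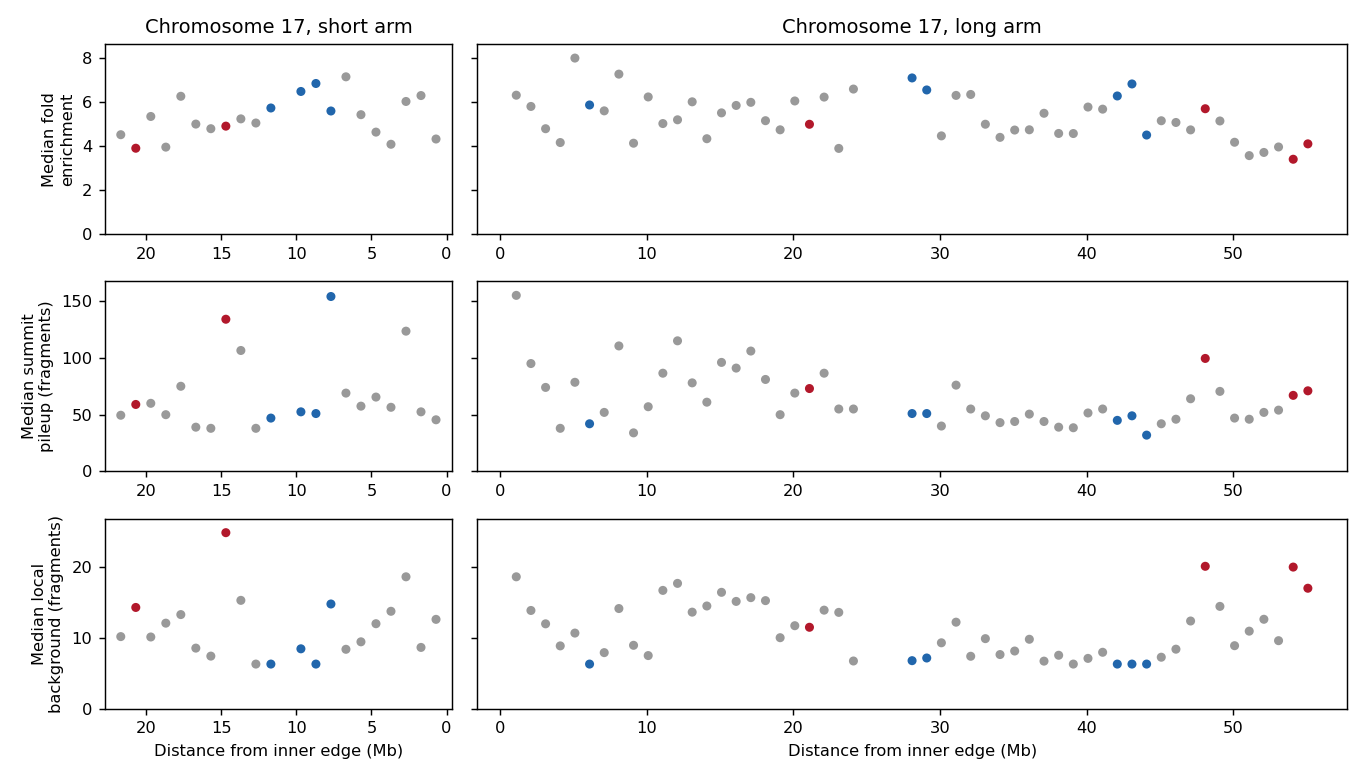
Median fold enrichment, summit pileup and local background (fragments) of the peaks in each whole 1 Mb bin with at least 5 peaks, against distance from the arm's inner edge in Mb, with dense bins in red, sparse bins in blue and middle bins in grey. The highest background is in the short arm's dense bin at 7 to 8 Mb (24.9 fragments), and fold is low over the outermost bins of the long arm.

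The dense blocks were not all of 1 kind. The short arm's bin at 7 to 8 Mb combined wide peaks (median 813 bp) with tall summits (134 fragments), a high −log10 q (40.8) and a background of 24.9 fragments, the highest of any bin with at least 5 peaks. By contrast, the neighbouring dense bins at 81 to 83 Mb on the long arm held 184 peaks, or 92 per Mb, with a median fold of 3.78 over a background of 18.6. In the bin at 81 to 82 Mb the median fold was 3.41, the lowest of any bin with at least 5 peaks. The sparse runs of the long arm had unlike medians as well, with a median fold of 7.11 at 52 to 57 Mb and of 4.78 at 69 to 72 Mb, the latter below the arm's median. These rest on 36 and 33 peaks and have no interval here. Over all 82 peaks in the arm's sparse bins the interval of the median was already 4.92 to 7.11.

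Single peaks with a very high background were unevenly spread. A background of at least 10 times the floor was found at 37 short arm peaks, or 4.39% (3.20 to 6.00%), and at 47 long arm peaks, or 2.07% (1.56 to 2.74%), with 1.55% over the list. The intervals of the arms did not overlap, but they treat these peaks as independent. Many lay close together, where neighbours can share a background window, so the intervals do not establish a difference between the arms. On the short arm these peaks lay in 8 bins, with 13 at 7 to 8 Mb, 10 at 8 to 9 Mb and 5 at 19 to 20 Mb. On the long arm they lay in 19 bins, with 12 at 43 to 44 Mb, 6 at 81 to 82 Mb and 5 at 28 to 29 Mb. Copy number of the cell line and accessibility cannot be told apart in pileups or backgrounds of this list.

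The peak with the highest fold and the highest significance on the long arm was the same one, at 43251508 to 43252344. It had a fold of 22.7 and a −log10 q of 3108, from 3298 fragments over a background of 144. The other long arm folds in the top 5 were 18.4 at 64918911 to 64920035, 18.3 at 83247158 to 83247392, 18.1 at 31901150 to 31902052 and 18.1 at 68413496 to 68414175. The peak with a fold of 18.3 was also the outermost of the arm and only 235 bp wide. On the short arm the highest fold was 19.4 at 215597 to 216471, with 719 fragments over a background of 36.1 and a −log10 q of 636, close to the outer end of that arm. It was followed by 17.9 at 20908238 to 20909007, 17.8 at 3048616 to 3049474, 17 at 10697126 to 10698098 and 16.8 at 16653130 to 16653998. The peak at 10697126 lay in the sparse run, with its nearest neighbours 50318 and 56969 bp away, so sites of high fold occurred there too.

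The widest peak of the short arm spanned 6192 bp at 121793 to 127984, next to the arm's first peak at 117154 to 118061, and was followed by 3489 bp at 1308138 to 1311626 and 3078 bp at 254176 to 257253. These 3 lay in the outermost 2 Mb. The next were 3028 bp at 19061490 to 19064517 and 2829 bp at 8118470 to 8121298, further in. On the long arm the widest peak, of 4261 bp at 81867463 to 81871723, lay in its fullest bin. The next were 3217 bp at 44218368 to 44221584, 3201 bp at 43257935 to 43261135, 3163 bp at 48610266 to 48613428 and 3109 bp at 81512299 to 81515407, so 3 of the top 5 lay in dense bins. The 5 widest long arm peaks had folds of 3.87, 4.50, 4.75, 4.03 and 4.87, all below the arm's median. This holds for these extremes only, since long arm peaks at a −log10 q of 100 or more combined a median width of 1168 bp with a median fold of 11.4. The 5 widest short arm peaks had folds from 4.89 to 9.34. All of them but the peak of 2829 bp lay above that arm's median of 5.04.

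The most significant peaks were clustered. Of the long arm's 5 highest −log10 q values, 4 lay between 43239171 and 43300878: 3108 at the peak described above, 1959 at 43239171 to 43241499, 965 at 43270751 to 43273261 and 717 at 43299446 to 43300878. The remaining one, 720, was at 63621616 to 63623265. On the short arm 3 of the top 5 lay between 19061490 and 19188944, with 1286 at 19187582 to 19188944, 941 at 19061490 to 19064517 and 705 at 19111040 to 19113101. The others were 693 at 4966995 to 4968179 and 666 at 17972123 to 17973126. Both stretches were singled out after these values were seen, so what follows describes them without a test.

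Within its 61.7 kb, the long arm stretch held 11 peaks, or 178 per Mb, in a bin of 70 peaks that was not dense as a whole. Their −log10 q ranged from 36.8 to 3108 with a median of 605, and 10 of the 11 reached 100. The background ranged from 21.9 to 170 fragments with a median of 144, or 22.9 times the floor. Just outside the stretch, the peaks at 43231736 to 43232618 and 43233102 to 43234653 had backgrounds of 69.3 and 71.0 fragments. Summits there followed each other at steps of 3.42 to 8.53 kb. The 10 steps between summits measured 5.79, 5.97, 8.53, 6.46, 4.70, 6.61, 6.16, 5.96, 6.33 and 3.42 kb in order of position, with a median of 6.07 kb, quartiles of 5.83 and 6.43 kb and an SD of 1.31 kb. Of these, 7 were between 5 and 8 kb. Over the whole arm 16.7% of 2275 steps lay in that band, and the median step was 12.0 kb with quartiles of 6.60 and 25.1 kb. At 178 peaks per Mb steps are short in any case, so this comparison does not bear on even spacing.

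The short arm stretch was looser. Over 127 kb it held 18 peaks, or 141 per Mb, whose −log10 q ranged from 2.46 to 1286 with a median of 52.2, and 8 of them reached 100. Its background was 7.41 to 183 fragments with a median of 19.5, and the 3 strongest peaks, with 172, 110 and 183 fragments, stood well above the other 15. The stretch was cut at peaks of the top 5. The next peak outside it, 229 bp away at 19189174 to 19190679, had a background of 184 fragments, the highest of the arm. The 17 steps between summits ranged from 0.581 to 14.4 kb with a median of 6.63 kb and an SD of 4.11 kb. Of these, 6 were between 5 and 8 kb, where 16.1% of the arm's steps lay, and the same limit applies to this comparison. The median background of either stretch was above its arm's median. Whether these stretches hold repeated sequence, where reads cannot be placed uniquely and which would change what their pileup, background, fold and spacing stand for, was not tested.

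**Figure D5:**
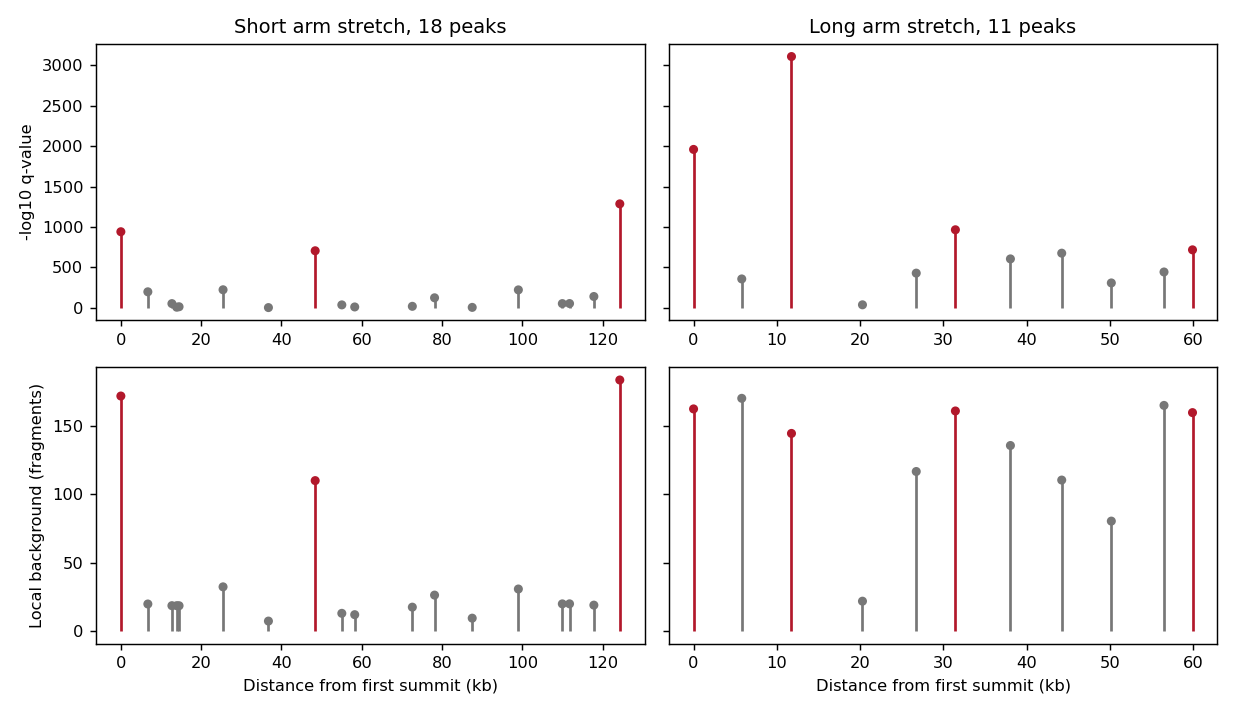
The −log10 q (top) and local background in fragments (bottom) of every peak in the short arm stretch (left, 18 peaks) and the long arm stretch (right, 11 peaks), against the distance from the stretch's first summit in kb; red marks peaks among their arm's 5 highest −log10 q values. On the right, 10 of 11 peaks have a background above 80 fragments, and on the left 3 of 18 peaks do. The steps between summits on the right have a median of 6.07 kb.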

How the data were processed

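HEK293 ATAC-seq libraries (Omni-ATAC, 50000 cells, 8 PCR cycles; 2 per TRAFTAC) were processed by the authors. The submitters' notes name Trimmomatic, Bowtie2, Picard, MACS2 and build GRCh38.p10. Peaks were found on all 4 libraries merged, so the deposited list has 0 columns of single samples. How reads matching several places were treated is not given in the sources used here. The deposited values are the peak position and summit, an integer score (not used), fold enrichment at the summit (a ratio with a pseudocount of 1), −log10 p-value and −log10 q-value. Here, pileup and background were recovered from fold and p under the caller's Poisson model (misfit at most 0.001), after tests on simulated data. Medians have order-statistic intervals, shares Wilson intervals and the density ratio a conditional binomial interval, at 95%. Coordinates are 1-based. Python 3.11.15, numpy 2.4.6, pandas 2.3.3, scipy 1.17.1 and matplotlib 3.10.9 were used. Named items were, per arm, the 3 fullest and 3 emptiest whole bins, the 3 longest gaps, the 5 highest peaks by fold, −log10 q and width, and the peaks nearest the arm ends. Other items were picked after their values were seen. Members, lists and rules were chosen with earlier results of these data known. Alternatives were stricter q limits, merged neighbouring peaks, other bin sizes, grids and class limits, removal of the inner edges, and removal of high-background peaks. Limits of −log10 q at 2 and on background were added after seeing the data. Genes, sequences and differences between TRAFTACs were not analysed here.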

Additional observations from a re-analysis of the deposited data

Results flagged for a closer look

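The region between the arms, from 22.2 to 27.4 Mb, was left out of every arm value above and still held 49 peaks, or 9.42 per Mb. These peaks count only in the values of the whole list and of chromosome 17 as a whole. Their median fold was 5.52, their median width 807 bp and their median −log10 q 32.1. The highest fold among them was 40.2, also the highest of the whole list, and their highest −log10 q was 3208. Whether these peaks hold repeated sequence, where reads cannot be placed uniquely, was not tested, so such values need not stand for open chromatin. The paper's processing removes peaks over regions of the ENCODE blacklist, and whether the deposited list had this step was not checked here. These 49 peaks drew attention because they lie in data that the arm values did not use, and no control samples for peak calling were used here.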

How the results depend on the processing

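Of 97 values recomputed under alternatives, 76 stayed within their limits and 21 moved. The limit for counts was wide, at 1.5 times. A limit of −log10 q at 5 moved, for short and long arm in turn, the median width to 692 and 659 bp, fold to 5.89 and 5.88, −log10 q to 35.0 and 33.1, pileup to 87.5 and 81, background to 13.7 and 13.6 and gap to 13775 and 13796 bp. By construction it removes weak peaks. It kept all 6 dense and all 14 sparse bins and made 3 further bins dense, 9 in all. Merging peaks at most 1000 bp apart moved the width to 638 and 599.5 bp. Bins of 0.5 Mb gave a median of 19 peaks with 14 dense and 35 sparse bins, and bins of 2 Mb a median of 78 with 0 and 6. All 3 bin values moved at either size, and the median per bin had to, since it follows the size of the bin. Limits of 1.5 times and 2/3 of the median gave 20 dense and 19 sparse bins. Leaving out 1 Mb at each inner edge, a limit of −log10 q at 2, and a grid shifted by 0.5 Mb moved 0 values. The same held without peaks with a background of 10 times the floor or more. The shifted grid nonetheless gave 7 dense and 19 sparse bins, which the wide limit for counts allowed. Without the high-background peaks 5 of the 6 dense and all 14 sparse bins kept their class. No paired analysis was possible because peak values exist only for all 4 libraries together, without replicate numbers. For the same reason no library could be left out. Depth limits the weakest peaks most, and how many sites fell below the caller's threshold is unknown.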
